A study of Mus musculus with 6 samples.

Results

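Aminoacyl-tRNA synthetases join each amino acid to the transfer RNAs that carry it to the ribosome. Their genes were taken by symbol from the count table: every protein-coding gene named by one letter followed by ars or ars2, together with the glutamyl-prolyl synthetase Eprs, the phenylalanyl synthetase subunits Farsa and Farsb, and the scaffold genes Aimp1 and Aimp2. This gave 39 of the 43629 genes in the table, made up of 20 cytosolic synthetase genes, 17 mitochondrial synthetase genes and 2 scaffolds. The RNA came from left ventricles of male CD-1 mice, an outbred strain, at 1 year of age. In the vehicle group (n = 3) pregnant dams had received saline, and in the caffeine group (n = 3) they had received 20 mg/kg caffeine by intraperitoneal injection once a day from embryonic day (E) 6.5 to 9.5 (the extraction notes give E10.5 as the last day). The adults themselves were not treated, so the comparison asks whether this gene family differed in adult hearts long after an exposure in utero. The labels do not say which hearts shared a dam, and p-values below take the 6 libraries as independent.

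Cytosolic and mitochondrial protein synthesis each need a full set of charged transfer RNAs, and both sets of synthetases are encoded in the nucleus. Most amino acids have a separate gene for each compartment, whereas the glycyl and lysyl synthetases Gars and Kars serve both. Several cytosolic synthetases are held with Aimp1 and Aimp2 in the multi-tRNA synthetase complex, and many cytosolic members are known targets of ATF4, the transcription factor of the amino acid stress response. In the heart, the mitochondrial enzymes supply the synthesis of the respiratory chain subunits that mitochondrial DNA encodes.

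Total counts were 7613011 to 10483101 per library, and a count of 3, the least taken as detection, was worth 0.286 to 0.394 CPM, the counts scaled to library size. The ventricular markers Myl2, Myl3, Myh6, Tnni3, Tnnt2 and Actc1 stood at 3813.0 to 16388.7 CPM, whereas the atrial genes Myl7 and Sln did not pass the filter on low counts, nor did any of 3 adipocyte or 4 skeletal muscle markers. Of the 2 other atrial markers, Myl4 was at 0.70 to 1.76 CPM, and Nppa, the atrial natriuretic peptide gene, was at 51.3, 90.2 and 180.2 CPM in vehicle and 266.3, 370.0 and 433.1 CPM in caffeine hearts. The caffeine hearts were all above the vehicle hearts for Nppa (log2 fold change 1.73 ± 0.35, SE and n = 3 per group, edgeR adjusted p = 0.125). All 5 fibroblast markers and all 5 macrophage markers had fitted changes above 0 with caffeine, and none of them was called (0.107% of all genes). Their summed levels were 749.9 to 903.9 CPM in vehicle and 990.2 to 1134.6 CPM in caffeine hearts for fibroblast markers, and 177.1 to 279.8 against 214.8 to 428.2 CPM for macrophage markers. Each library is a whole piece of tissue, so that a change in the number of cells of a type and a change in RNA per cell cannot be told apart.

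The first set of sequences is shown because Lars2, the mitochondrial leucyl-tRNA synthetase, carried far more counts than any other member and holds a stretch that recurs in a gene of the ribosomal RNA list. Transcripts of the GENCODE M21 annotation (GRCm38) were aligned with each other. Gm15564 is in the list of ribosomal and structural RNA genes used here, and its own likeness to ribosomal RNA was not tested. A stretch of 72 bases in exon 21 of 21 of a Lars2 transcript matched positions 179 to 250 of the 402-base transcript of Gm15564. There was 1 mismatch (98.61% identity). The stretch lies in the 3′ UTR on the + strand at chr9:123462048-123462119, 370 bases past the stop codon. The mismatch was A53T, counted from 1 at the 5′ end of the match with the base of Lars2 first. The lines give the 30 bases from position 38 to 67 of the match (chr9:123462085-123462114 in Lars2), with the differing base in capitals.
Lars2: ggaacgtgagctgggAttagaccgtcgtga
Gm15564: ggaacgtgagctgggTttagaccgtcgtga

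The second set is shown because ATF4 binds, with C/EBP partners, to a C/EBP-ATF response element, and the synthetase promoters differed in whether they held its core. Promoter windows from RefSeq (GRCm38.p6), running from 250 bases before to 50 bases after each start, were given for 28 of the 39 members, of which 12 were cytosolic, 14 mitochondrial and 2 scaffolds. The letters TGATGNAA, searched on both strands, were in the windows of Aars, Gars, Iars, Tars and Yars, which charge alanine, glycine, isoleucine, threonine and tyrosine. All 5 are cytosolic members of the ATF4 target list. Eprs and Sars of that list had windows without the letters, and Cars, Lars, Mars, Nars, Vars and Wars had no window. No window of a mitochondrial member held the letters, and of all 32851 promoter windows 3.97% held them. Whether the compartments differ in this was not tested. The lines run 5′ to 3′ along the strand of the gene with the match in capitals, and a match on the other strand reads as the reverse complement. For Aars 1 of its matches is shown.
Aars (chr8:111033840-111033869, + strand): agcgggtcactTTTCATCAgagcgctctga
Gars (chr6:55037960-55037989, + strand): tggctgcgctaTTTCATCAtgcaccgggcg
Iars (chr13:49682126-49682155, + strand): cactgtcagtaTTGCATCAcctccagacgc
Tars (chr15:11399655-11399684, - strand): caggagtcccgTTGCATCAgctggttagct
Yars (chr4:129189895-129189924, + strand): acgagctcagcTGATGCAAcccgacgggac

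After caffeine exposure in utero the synthetase genes lay close to their vehicle levels, with the exception of the counts on Lars2. None of the 39 members was called by edgeR's quasi-likelihood test at an adjusted p below 0.05 with a fold change above 1.5, where 0.107% of the 13092 genes tested were called (14 genes, 11 higher and 3 lower). All 39 members passed the filter on low counts. At an unadjusted p below 0.05 there was 1 member, Lars2, against 8.82% of all genes. The fitted log2 fold change was above 0 in 19 members and below 0 in 20, with a median of -0.001, and the median over all genes was 0.001. In 35 of 39 members the 95% interval of the fold change stayed within 1.5-fold in either direction, as it did for 63.0% of all genes. The 4 others were Lars2, Wars, Nars2 and Wars2. Standard errors were 0.09 to 0.19 in members and 0.08 to 1.07 over all genes, which include genes of lower counts. The shares of intervals within 1.5-fold were thus not compared at equal counts.

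**Figure D1:**
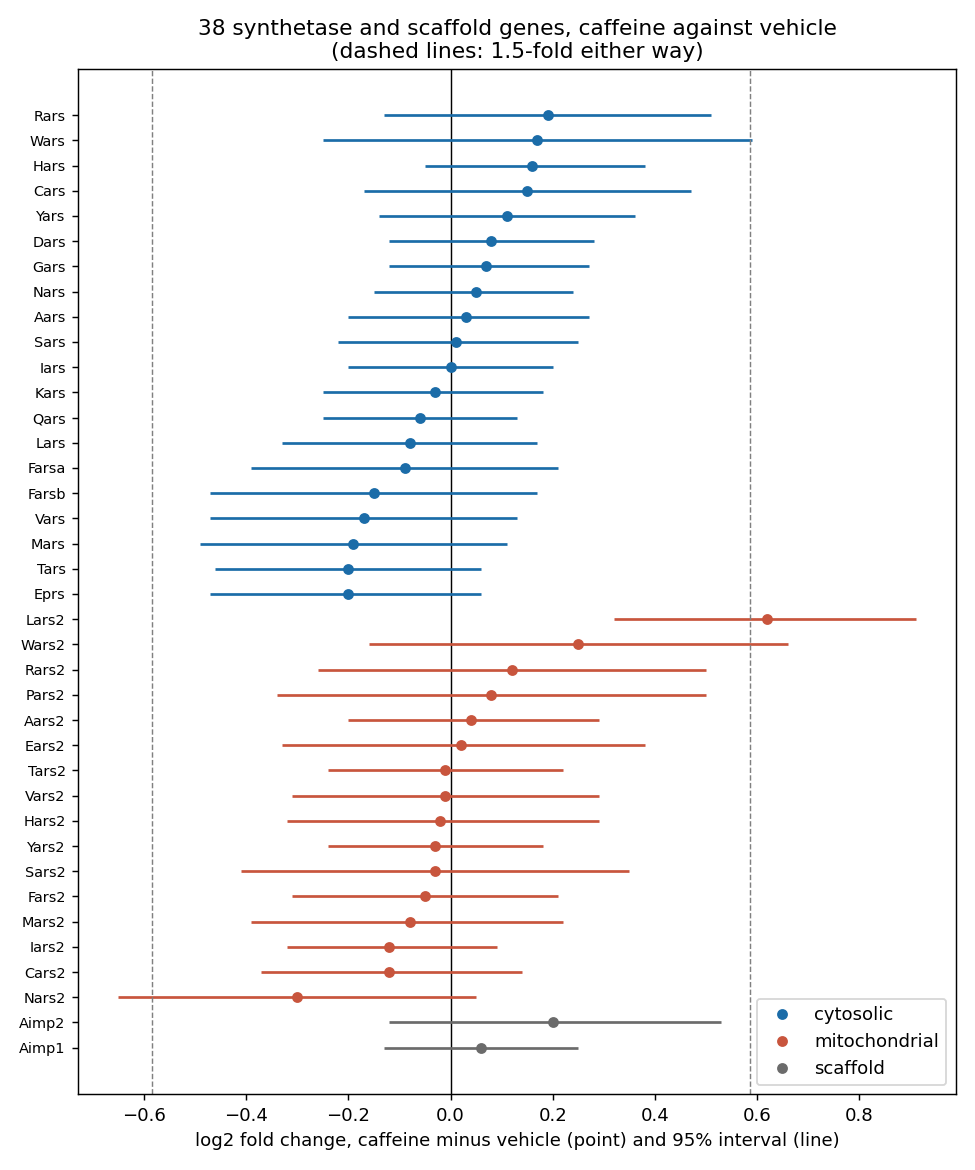
Log2 fold change of caffeine over vehicle hearts (x axis) with its 95% interval for 38 of the 39 genes (y axis), in blue for cytosolic and red for mitochondrial synthetases and grey for scaffolds, with dashed lines at 1.5-fold. Lars2 at 0.62 stands to the right of all others, which lie between -0.30 and 0.25.

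The cytosolic synthetases had no shift in a common direction. Of 20 genes, 10 had a fitted log2 fold change above 0 and 10 below it, from -0.20 to 0.19 with a median of 0.005, and standard errors were 0.09 to 0.19. Adjusted p-values from edgeR were 0.676 or more. Summed over the 20 genes, the level was 1120.0, 1001.6 and 995.3 CPM in the vehicle hearts and 990.9, 1046.2 and 1056.7 CPM in the caffeine hearts, so that the groups overlapped.

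The largest fitted falls among cytosolic members were in Eprs, Tars and Mars. Eprs, which charges both glutamate and proline, stood at 128.4, 100 and 108.0 CPM in vehicle hearts and at 84.4, 99.2 and 108.5 CPM in caffeine hearts, a log2 fold change of -0.20 ± 0.12 (SE, n = 3 per group, edgeR adjusted p = 0.676). The lowest value was in caffeine replicate 1, and the groups overlapped. Tars, the threonyl synthetase (chr15:11382301-11399665), stood at 21.1, 20.3 and 18.8 CPM in vehicle and 16.4, 18.7 and 17.2 CPM in caffeine hearts. Every caffeine heart was below every vehicle heart, although the nearest hearts were at 18.7 and 18.8 CPM, and 7.12% of all genes showed the same order. Its log2 fold change was -0.20 ± 0.12 (SE, n = 3 per group, edgeR adjusted p = 0.681). Mars, the methionyl synthetase, stood at 54.7, 45.0 and 38.7 CPM against 39.1, 36.8 and 45.3 CPM, which overlapped, with a log2 fold change of -0.19 ± 0.14 (SE, n = 3 per group, edgeR adjusted p = 0.744).

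The largest fitted rises among cytosolic members were in Rars, Wars and Hars. Rars, the arginyl synthetase, stood at 27.3, 26.8 and 28.0 CPM in vehicle hearts and at 23.8, 32.8 and 36.4 CPM in caffeine hearts, for a log2 fold change of 0.19 ± 0.14 (SE, n = 3 per group, edgeR adjusted p = 0.777). The vehicle hearts lay close together and inside the spread of the caffeine hearts. Hars, the histidyl synthetase, stood at 30.9, 29.1 and 27.7 CPM against 32.8, 33.0 and 32.5 CPM. The caffeine hearts were all above the vehicle hearts, an order that 7.11% of all genes had, and among the members only Hars and Lars2 showed it. The log2 fold change of Hars was 0.16 ± 0.10 (SE, n = 3 per group, edgeR adjusted p = 0.681). Gars and Kars, the enzymes of both compartments, were among the highest members per kb of exon and lay at 80.9 to 88.5 and 79.3 to 95.3 CPM in vehicle against 82.0 to 93.1 and 79.9 to 90.0 CPM in caffeine hearts. Their log2 fold changes were 0.07 ± 0.09 and -0.03 ± 0.10 (SE).

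Wars, the tryptophanyl synthetase (ENSMUSG00000021266, chr12:108860030-108894174), differed from the other cytosolic members in that 1 heart stood apart. The vehicle hearts had 65.6, 54.9 and 61.4 CPM, and the caffeine hearts had 95.6, 55.6 and 53.6 CPM. Caffeine replicate 1 was above all other hearts, whereas replicates 2 and 3 lay within or below the vehicle range. The log2 fold change was 0.17 ± 0.19 (SE, n = 3 per group, edgeR adjusted p = 0.868), and without caffeine replicate 1 it was -0.15. The study names Wars, with a rise, among its differentially expressed genes. Here it was not called, also not by edgeR's exact test (adjusted p = 0.983), and the reason for the difference was not tested. Wars is the synthetase known to be induced by interferon gamma.

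The interferon response list, 14 genes that include the guanylate-binding proteins Gbp2, Gbp3 and Gbp7, had its highest summed level in the same heart. The sums were 177.1, 154.8 and 174.2 CPM in vehicle and 437.3, 172.0 and 250.5 CPM in caffeine hearts. Caffeine replicate 3, with the next highest sum, had the lowest Wars level of all hearts (53.6 CPM). All 14 had fitted log2 fold changes above 0 (median 0.67), 9 had an unadjusted p below 0.05 (8.82% of all genes), all caffeine hearts were above all vehicle hearts in 3 (7.11% of all genes), and none was called (0.107% of all genes). Irgm2, an interferon-inducible GTPase with the smallest p of the list, had 15.9, 12.5 and 14.7 CPM against 55.7, 15.8 and 29.7 CPM (edgeR adjusted p = 0.289). The summed macrophage markers were also highest in caffeine replicate 1, at 428.2 CPM, and that library had the smallest total count. What part these had in the value of Wars was not tested. No window was given for the Wars promoter. Of the other members, TTCNNNGAA, the core of the gamma-activated site, was found on either strand in the windows of Aars, Kars and Nars2 (8.3% of all windows), and GAAANNGAA, from the interferon-stimulated response element, in those of Aimp2 and Qars (8.56% of all windows).

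**Figure D2:**
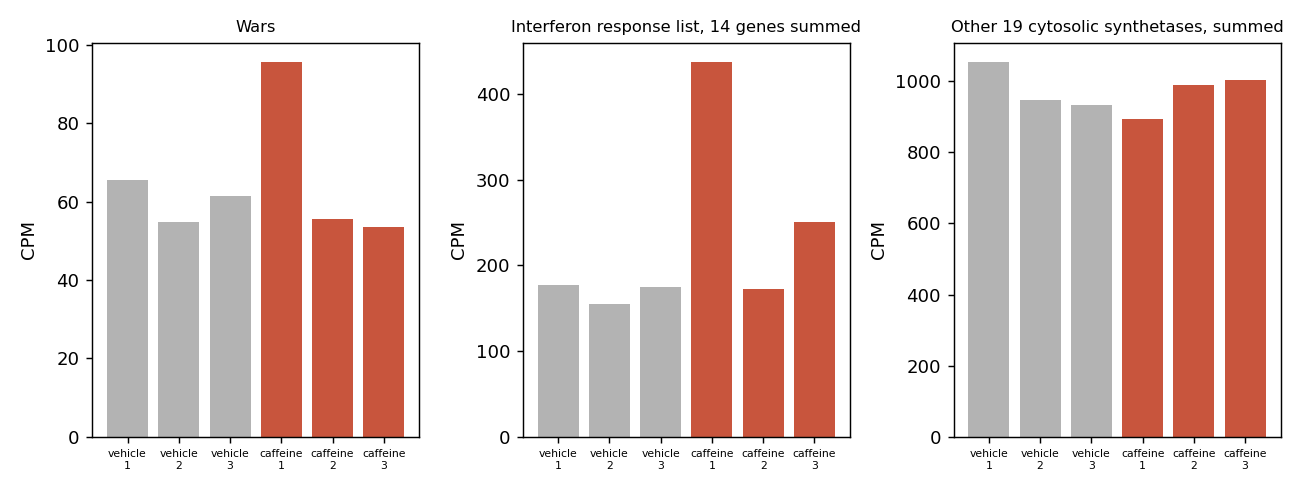
Bars give the level in CPM (y axis, from 0) in each of 3 vehicle (grey) and 3 caffeine (red) hearts for Wars, for the 14 interferon response genes summed, and for the other 19 cytosolic synthetases summed. Caffeine replicate 1 is the highest for Wars (95.6 CPM) and for the interferon list (437.3 CPM), and it is the lowest for the other cytosolic synthetases.

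Groups of members by what they are known for had values on both sides of 0. The 10 listed genes of the multi-tRNA synthetase complex, Aimp1 and Aimp2 included, had a median log2 fold change of -0.017, with 4 above and 6 below 0. Eef1e1, a further scaffold of the complex that was listed with other aminoacylation genes and is not in these counts, had a log2 fold change of 0.12 ± 0.18 (SE). The 10 genes summed to 543.7 to 611.1 CPM in vehicle and 527.8 to 577.7 CPM in caffeine hearts. Aimp1, whose product holds the complex together and is also cleaved into a cytokine, stood at 53.1, 51.7 and 52.5 CPM against 56.8, 53.1 and 54.2 CPM, and Aimp2, the other scaffold, at 18.9, 15.1 and 14.1 CPM against 20.6, 18.2 and 16.8 CPM. Their log2 fold changes were 0.06 ± 0.09 (edgeR adjusted p = 0.898) and 0.20 ± 0.15 (edgeR adjusted p = 0.752, both SE and n = 3 per group), and both overlapped between groups. Of the exon bases of Aimp2, 29.4% overlap a neighbouring gene.

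The 13 known ATF4 targets had a median log2 fold change of 0.011, with 7 above and 6 below 0, and the 7 other cytosolic members had a median of -0.034, with 3 above and 4 below. The 5 genes with TGATGNAA in the promoter window printed above had values on both sides, from -0.20 in Tars through 0.00 in Iars, 0.03 in Aars and 0.07 in Gars to 0.11 in Yars. Class I and class II enzymes, which have unrelated catalytic folds, had medians of -0.014 over 19 genes and 0.002 over 18 genes.

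The mitochondrial synthetases other than Lars2 were also close to their vehicle levels. Of 16 genes, 6 had a fitted log2 fold change above 0 and 10 below it, from -0.30 to 0.25 with a median of -0.015. The edgeR adjusted p was 0.64 or more, every gene overlapped between groups, and the interval stayed within 1.5-fold in 14. Summed, they stood at 535.1, 480.3 and 453.8 CPM in vehicle hearts and at 467.3, 484.5 and 468.1 CPM in caffeine hearts, with the caffeine hearts inside the vehicle range.

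Nars2, the mitochondrial asparaginyl synthetase, had the largest fitted fall of all members. It stood at 14.4, 15 and 14.9 CPM in vehicle hearts and at 10.9, 14.8 and 10.2 CPM in caffeine hearts, a log2 fold change of -0.30 ± 0.16 (SE, n = 3 per group, edgeR adjusted p = 0.64). Caffeine replicate 2 lay within the vehicle range and the other two below it. Iars2, the isoleucyl enzyme and the most highly counted mitochondrial member after Lars2, stood at 154.5, 128.1 and 133.4 CPM against 123.5, 126.8 and 133.7 CPM (-0.12 ± 0.09, SE). Cars2, the cysteinyl enzyme, stood at 38.7, 33.0 and 29.7 CPM against 31.5, 31.2 and 30.8 CPM (-0.12 ± 0.12, SE). In both genes vehicle replicate 1 was the highest heart, and the groups overlapped.

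Beside Lars2, the largest fitted rises among mitochondrial members were in Wars2 and Rars2. Wars2, the mitochondrial tryptophanyl enzyme, had 9.28, 7.29 and 6.38 CPM in vehicle and 8.96, 10.3 and 8.09 CPM in caffeine hearts, for a log2 fold change of 0.25 ± 0.19 (SE, n = 3 per group, edgeR adjusted p = 0.761). Its highest heart was caffeine replicate 2, not the replicate in which Wars was high. Rars2, the arginyl enzyme, had 11.1, 10.8 and 9.73 CPM against 8.68, 13 and 12.5 CPM (0.12 ± 0.17, SE), and caffeine replicate 1 was the lowest heart. The prolyl and methionyl enzymes Pars2 and Mars2 were among the lowest members per kb, at 5.17 to 6.35 and 16.7 to 22.4 CPM in vehicle against 5.31 to 6.45 and 19 to 19.9 CPM in caffeine hearts, and their log2 fold changes were 0.08 ± 0.19 and -0.08 ± 0.14 (SE).

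Members not given singly had levels between 10 and 82.5 CPM in the 6 hearts. These included Aars, Cars, Dars, Farsa, Farsb, Iars, Lars, Nars, Qars, Sars, Vars and Yars of the cytosolic set, and Aars2, Ears2, Fars2, Hars2, Sars2, Tars2, Vars2 and Yars2 of the mitochondrial set, where Sars2 reached down to 9.22 CPM. In each of them the groups overlapped.

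The balance between the 2 compartments differed between groups by no more than the spread of the hearts. The summed cytosolic level over the summed mitochondrial level without Lars2 was 2.09, 2.09 and 2.19 in vehicle hearts and 2.12, 2.16 and 2.26 in caffeine hearts, with means of 2.12 ± 0.06 and 2.18 ± 0.07 (SD, n = 3 each). Per kb of exon the ratio was 2.56 to 2.70 in vehicle and 2.65 to 2.76 in caffeine hearts. Both scales gave ranges that overlapped.

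Levels of single genes were compared per kb of exon, a scale that corrects for the length of the counted region. After Lars2 the highest levels were in Gars at 27.7 and Kars at 19.3 CPM per kb, and the lowest were in Wars2 at 1.41, Mars2 at 1.76 and Pars2 at 1.89 CPM per kb. Per kb of the longest coding transcript, Aimp1 (47.6), Kars (39.3) and Gars (36.3) came after Lars2, and the same genes were lowest. The differences between genes were thus far wider than those between groups. For 13 amino acids with a separate gene for each compartment, leucine left out, the cytosolic gene was the higher one in 9 pairs and the mitochondrial gene in 4, in each case in all 6 hearts. The median ratio of cytosolic to mitochondrial level was 2.28. The ratio was largest for tryptophan (Wars over Wars2, 13.3, from 9.35 to 18.4 over the hearts) and smallest for tyrosine (Yars over Yars2, 0.38, from 0.35 to 0.42). The mitochondrial gene was also higher for cysteine (0.54), isoleucine (0.51) and threonine (0.45). With the length of the longest coding transcript in place of the exon length the cytosolic gene was again higher in 9 pairs, with a median of 2.35. On that scale the lowest ratios were those of cysteine (0.29) and threonine (0.31), followed by isoleucine (0.38) and tyrosine (0.69), so the order among these 4 pairs depended on the length used. Of the exon bases of Iars2, 24.2% overlap a neighbouring gene. The fitted changes of the 2 partners had the same sign in 8 of 13 pairs. In some of these, such as Iars and Iars2, a fitted change lay well within its standard error, so that its sign carries little weight.

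**Figure D3:**
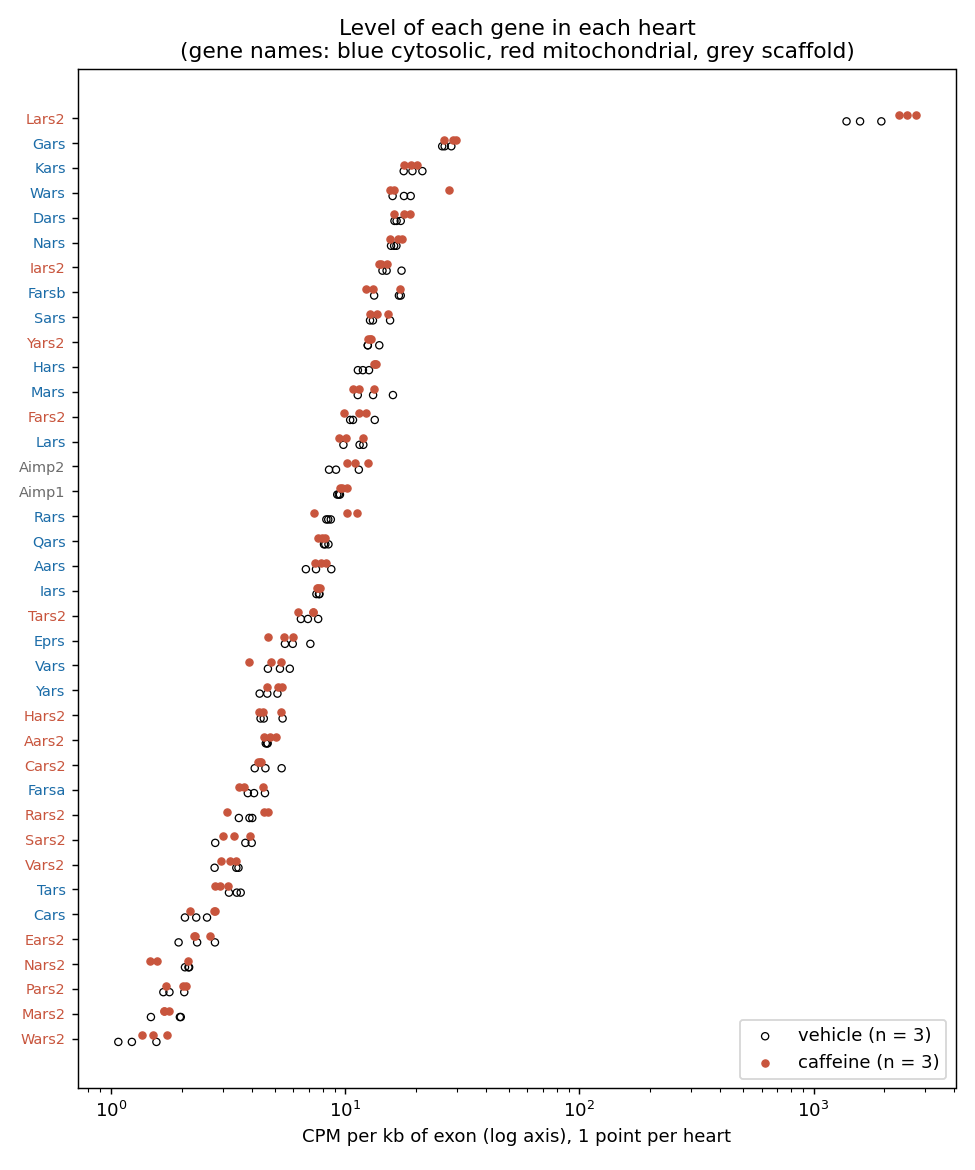
Level of 38 of the 39 genes in CPM per kb of exon (x axis, log scale), with 1 point per heart, open for vehicle (n = 3) and filled for caffeine (n = 3), ordered by mean level. Apart from Lars2, genes run from 1.41 (Wars2) to 27.7 (Gars) CPM per kb, and the 2 groups overlie each other in all genes but Lars2, Hars and Tars.

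**Figure D4:**
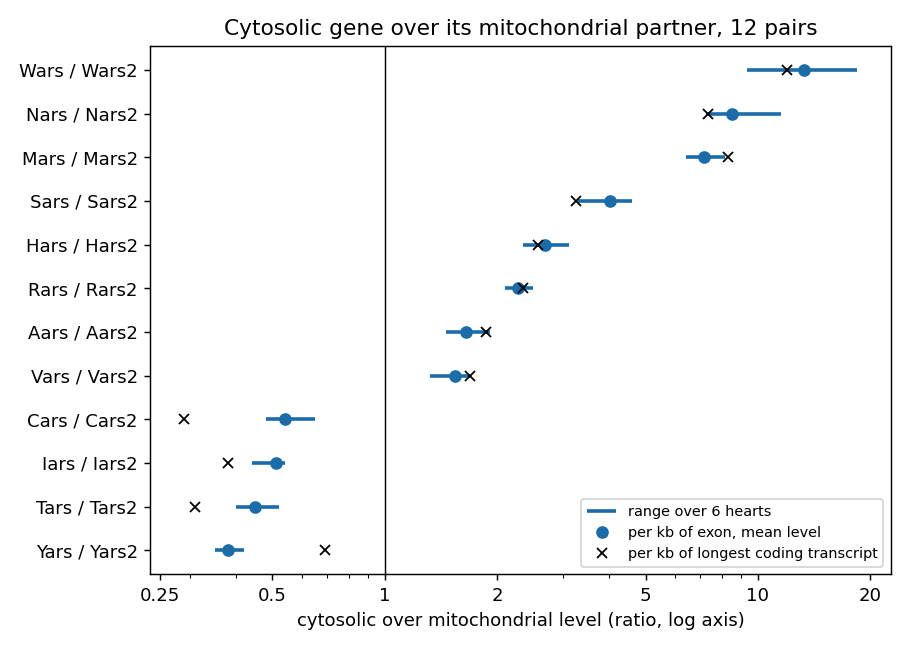
Ratio of the cytosolic gene to its mitochondrial partner for 12 of the 13 amino acids (x axis, log scale), as the ratio of mean levels per kb of exon (points), its range over the 6 hearts (lines) and the ratio per kb of the longest coding transcript (crosses). The cytosolic gene is higher in all pairs shown but 4, from Vars over Vars2 (1.54) to Wars over Wars2 (13.3), and lower in those 4.

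Lars2 (ENSMUSG00000035202, chr9:123366927-123462666, + strand) was out of scale with the rest of the family and was the member that differed most between groups. The vehicle hearts had 221177, 185213 and 151458 counts and the caffeine hearts 216248, 245460 and 219343 counts. These were 1.64% to 2.11% of all counts in vehicle and 2.58% to 2.84% in caffeine hearts, which placed Lars2 as the gene of rank 3 or 4 in every library. The other 38 members together took 0.161% to 0.169% and 0.144% to 0.160% of counts. In vehicle hearts the counts on Lars2 were thus 10.1 to 12.5 times those of all other members together. In caffeine hearts they were 16.1 to 19.7 times as high, and over both groups 239 to 597 times the counts of the cytosolic partner Lars. Whether the counts on Lars2 measure the mRNA of the mitochondrial leucyl enzyme was not tested.

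In CPM, Lars2 stood at 21608.2, 17526.5 and 15343.5 in vehicle hearts and at 30272.9, 27706.0 and 25721.6 in caffeine hearts. The groups did not overlap. The log2 fold change was 0.62 ± 0.13 (SE, n = 3 per group, 1.54-fold), and the edgeR adjusted p of 0.146 did not pass. The call depended on the test. Lars2 was called by edgeR's exact test (adjusted p = 0.00157), by DESeq2 (adjusted p = 0.000251), by the quasi-likelihood test with no filter on low counts (adjusted p = 5.23e-07), when the replicate numbers entered as blocks (adjusted p = 0.0297) and without vehicle replicate 1 (0.76, adjusted p = 0.0198). In those settings 0.718%, 0.512%, 1.07%, 0.306% and 0.203% of all genes tested were called, and no other member was.

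The counts of Lars2 and Gm15564 varied together from heart to heart. Gm15564, the gene aligned with Lars2 above, had 5990.5, 4875.1 and 4186.6 CPM in vehicle and 8174.7, 7464.1 and 6878.2 CPM in caffeine hearts. The ratio of Lars2 to Gm15564 was 3.61, 3.60 and 3.66 in vehicle hearts and 3.70, 3.71 and 3.74 in caffeine hearts, so that the highest ratio exceeded the lowest by 4.02%. Relative to Gm15564, the difference between groups in Lars2 shrank to a log2 value of 0.04 (exact permutation test, two-sided p = 0.1, the smallest that 3 against 3 allows). Among 13091 other genes, Gm15564 had the log2 ratio to Lars2 that varied least over the 6 libraries, with an SD of 0.023, where the median gene had an SD of 0.435. The next genes were Mir6236 (0.052), which is in the same list, Pla2g4a (0.088), a phospholipase gene, and Gm23935 (0.106), also of the list. Not all of the list followed Lars2 in this way. Gm26917 had an SD of 0.149 and Gm42418 of 0.308, while Rmrp (0.619), Rn7sk (0.663) and Rpph1 (0.815) lay above the median gene.

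Of 10 listed ribosomal and structural RNA genes 8 were in the table and tested, and in all 8 every caffeine heart was above every vehicle heart (7.11% of all genes). Their summed level was 106528, 91217 and 73911 CPM in vehicle hearts and 181008, 152639 and 134002 CPM in caffeine hearts. The median log2 fold change was 0.84, and 2 of them were called (0.107% of all genes), Gm26917 (0.63, edgeR adjusted p = 0.0301) and Rpph1, the RNA of ribonuclease P (1.89, edgeR adjusted p = 0.0242). The libraries were made from poly(A)-selected RNA. Reads were 75 bases long, against 72 bases of the match in the 3′ UTR, and the counts are given per gene, so that where on Lars2 the reads lie was not tested. At lower identity 1 further gene, AA474408, aligned over the same stretch (80.1% over 196 bases), a match found after the values were seen. It had 39, 33 and 42 counts in vehicle and 76, 48 and 55 counts in caffeine hearts, far below those of Lars2. Of the longest coding transcript of each member, searched at 97% identity over at least 70 bases, only that of Lars2 matched a gene of the ribosomal RNA list. None of the 37 genes of mitochondrial DNA had a count in any library, and of 9 nuclear copies of mitochondrial DNA 8 were tested with none called. With Lars2 and the ribosomal and structural RNA genes removed before scaling, still none of the other 38 members was called.

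**Figure D5:**
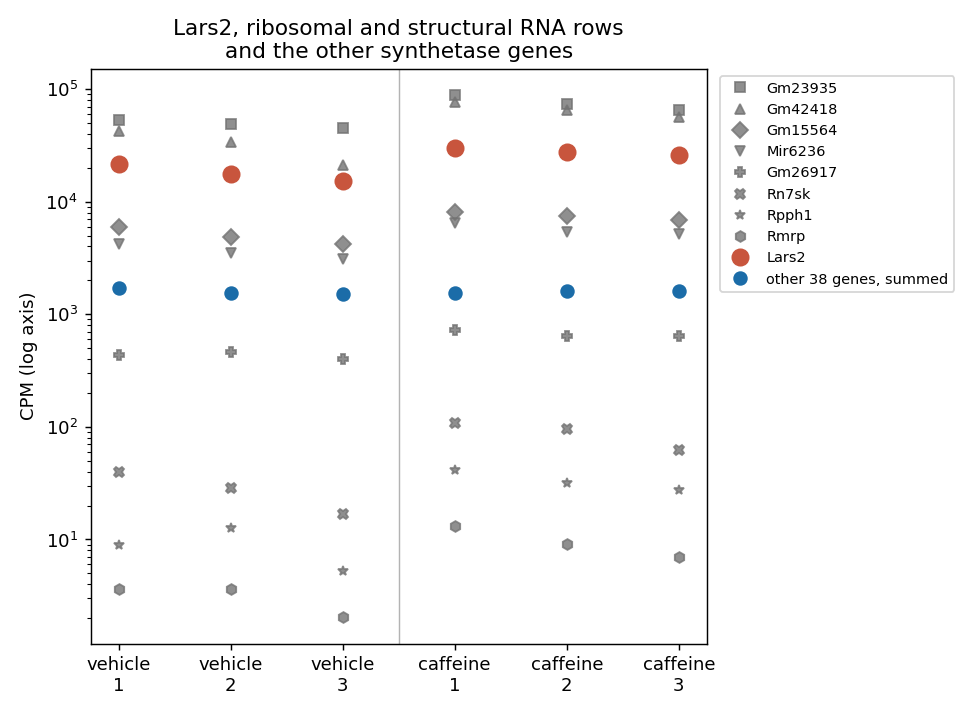
Level in CPM (y axis, log scale) in each heart for Lars2 (red), for 8 ribosomal and structural RNA genes (grey) and for the other 38 synthetase and scaffold genes summed (blue). Lars2 and all 8 grey genes are higher in each of the 3 caffeine hearts than in each of the 3 vehicle hearts, while the sum of the other members overlaps.

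Other genes of transfer RNA charging and its use were not called either. Of 11 further aminoacylation genes, such as the threonyl synthetase-like gene Tarsl2 and the subunits Gatb, Gatc and Qrsl1 of the mitochondrial amidotransferase that makes glutaminyl-tRNA, 10 were tested, 0 were called and 0 had an unadjusted p below 0.05 (8.82% of all genes), with log2 fold changes from -0.09 to 0.17. Of 7 elongation factors, which bring charged transfer RNAs to the ribosome or recycle the factor that does, 0 were called (0.107% of all genes). Eef1a1 alone among these did not overlap between groups, at 268.8, 254.5 and 264.6 CPM against 349.8, 268.9 and 288.7 CPM. Its caffeine hearts were all above its vehicle hearts, an order that 7.11% of all genes had. The log2 fold change was 0.20 ± 0.10 (SE, n = 3 per group, edgeR adjusted p = 0.619). Eef1a2, the form of adult heart and muscle, was the higher gene, at 1658.4 to 1995.9 CPM.

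Of 16 genes of the amino acid stress response, the pathway through which uncharged transfer RNA acts on ATF4, 14 were tested. None was called, against 0.107% of all genes. Atf4 stood at 86.9, 101.3 and 113.5 CPM against 111.4, 121.7 and 115.3 CPM and overlapped (log2 fold change 0.21 ± 0.11, edgeR adjusted p = 0.618, SE and n = 3 per group). Atf3, a stress-induced transcription factor, was the only gene of the list with an unadjusted p below 0.05, at 4.30, 5.87 and 3.24 CPM against 10.2, 9.93 and 8.68 CPM (log2 fold change 1.10 ± 0.22, edgeR adjusted p = 0.122, SE and n = 3 per group). Among the tested genes, the caffeine hearts were all above the vehicle hearts for Atf3 and for Trib3, a pseudokinase induced by ATF4. Of all genes, 7.11% had this order, and 8.82% had an unadjusted p below 0.05. Asns, the asparagine synthetase and a classical ATF4 target, was at 0.912 to 1.70 CPM in vehicle and 1.54 to 2.23 CPM in caffeine hearts.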

How the data were processed

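Poly(A) RNA was sequenced as single 75-base reads. Per the labels and the methods of the study, the authors used FastQC, mapped reads with TopHat2 (mm10) and obtained gene counts from HTSeq. The deposited files hold raw counts per Ensembl gene. Tool versions and the strand setting are not given in the sources used here.

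Symbols and exon lengths came from GENCODE M21 (42548 identifiers matched, 1081 did not), while the authors counted with an earlier annotation. The members and lists were chosen with earlier results of these data known. Genes were filtered with filterByExpr (minimum count 10, minimum total 15), scaled by TMM and tested over all 13092 genes with edgeR 4.0.16 (quasi-likelihood, R 4.3.3, Benjamini-Hochberg). A gene was called at an adjusted p below 0.05 with a fold change above 1.5. CPM values use TMM-scaled library sizes, and the detection floor the total counts. Intervals are at 95%, and the biological coefficient of variation was 12.1%. The fits were checked on simulated data. Replicates of each group differed beyond sampling noise and were kept separate. Alternatives were edgeR's exact test, DESeq2 1.42.0, limma-voom 3.58.1, other scalings and filters, a replicate block and leaving out each library. Alternatives on Lars2 and on gene length were added after seeing the data. Genes named with full values were Lars2, Wars, the scaffolds, the 3 largest rises and falls in each compartment, members whose groups did not overlap, and the 3 highest and 3 lowest per kb. Overlapping genes can lose reads in counting. Some items are not reported singly here.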

Additional observations from a re-analysis of the deposited data

How the results depend on the processing

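No cytosolic synthetase was called in any of 16 alternatives. The count of members called, and that of mitochondrial members called, moved from 0 to 1 (Lars2) with the edgeR exact test, DESeq2 and no filter, where Lars2 had log2 fold changes of 0.62, 0.62 and 0.60. Without vehicle replicate 1 the count was also 1. Leaving out each library in turn gave counts of 0 to 1 and log2 fold changes of 0.51 to 0.76 for Lars2, -0.15 to 0.32 for Wars (negative without caffeine replicate 1) and -0.10 to 0.04 for Kars. Relative to Gm15564, an alternative added after seeing the data, Lars2 differed by 0.04. Scaling by library size alone moved the median of all genes by -0.085 on the log2 scale, and Aimp1 (-0.02) and Gars (-0.01) then lay below 0. The causes were not tested. The other named members kept their direction, but leaving out 1 library changed the size of several. The log2 fold change of Nars2 ran from -0.49 without caffeine replicate 2 (edgeR adjusted p = 0.356) to -0.19 without caffeine replicate 3, and that of Rars from 0.34 without caffeine replicate 1 to 0.06 without caffeine replicate 3. It was -0.30 to -0.05 for Mars, -0.29 to -0.09 for Eprs, -0.20 to -0.01 for Cars2, -0.17 to -0.03 for Iars2 and -0.21 to -0.01 for Mars2, in the first 4 of which the smallest fall was without vehicle replicate 1. It was 0.02 to 0.27 for Rars2, 0.14 to 0.41 for Wars2, 0.12 to 0.34 for Aimp2 and 0.02 to 0.17 for Pars2, and none of these was called without any 1 library. Under all alternatives the medians and the ratio of the compartments moved by less than the spread between replicates.

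The replicate numbers gave no sign of pairing, with same-number correlations of 0.045, -0.03 and -0.038 against -0.083 to 0.12 for different numbers. With 3 hearts per group this cannot exclude a pairing. In the fit with a replicate block, 40 genes in place of 14 were called, among them 1 member, Lars2 at 0.63.

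With 3 hearts per group, smaller changes in low genes such as Pars2 and Wars2 were not detectable. Total counts bound only the counting error, and shares and floors cover counting error only. Levels per kb depend on the gene model, and exons that overlap a neighbour can lower a count.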
